A study of Homo sapiens with 12 samples.

Results

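SFSWAP knockdown was compared with a non-target siRNA in HEK293A-TOA cells whose UPF1 had been knocked down in both arms. HEK293A-TOA is a line derived from HEK293A, an adherent line of human embryonic kidney cells. The siNT/siUPF1 libraries came from cells transfected with the non-target siRNA and 30 nM siRNA against UPF1. The siSFSWAP/siUPF1 libraries came from cells that received 40 nM of a mixture of siRNAs against SFSWAP together with the same 30 nM of UPF1 siRNA. Both groups were harvested 5 days after transfection, had 3 biological replicates each, and were treated with 1 μM TG (thiamet G), an inhibitor of the O-GlcNAc-removing enzyme OGA, for the last 6 hr. The matching siNT and siSFSWAP groups, also 3 libraries each and also treated with TG, had no UPF1 siRNA. PolyA RNA was sequenced, and reads were counted for the inclusion and the skipping form of retained intron and skipped exon events. The annotation used had been supplemented with predicted decoy exons. Of 119788 events listed for the UPF1 knockdown background, the 39111 that averaged 10 or more reads a library, with 10 or more of each form summed over the 6 libraries, were tested. They comprised 5105 retained introns in 2597 genes and 34006 skipped exon events in 7380 genes, out of 245573 events listed in the 4 tables of the series.

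SFSWAP is a splicing factor with a stretch rich in arginine and serine and with SURP domains, a family of motifs also found in proteins that work with the U2 snRNP at the branchpoint. Nonsense-mediated decay (NMD) removes mRNAs whose reading frame ends at a stop codon ahead of a later exon junction, and the helicase UPF1 is its central factor. Many genes of splicing proteins carry poison exons, cassette exons whose inclusion brings in such a stop codon and exposes the transcript to NMD. Decoy exons are cassette exons within retained introns, and the one in OGT intron 4 also holds a stop codon. Depleting UPF1 keeps transcripts of this kind from being degraded, so that exon choices otherwise hidden by decay can be read from steady-state RNA.

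Each library had 25938084 to 35194795 reads over the skipped exon events and 1812787 to 2531562 over the retained intron events, and a read is counted at every event it touches. The first listed siSFSWAP/siUPF1 library was the shallowest in both. SFSWAP reads at its 7 events were 30.5, 41.0 and 35.5 per 1000000 skipped exon reads in the siNT/siUPF1 libraries and 9.87, 13.9 and 20.3 in the siSFSWAP/siUPF1 libraries. All knockdown libraries lay below all non-target libraries, a decrease of 58.9% (35.7 ± 5.26 against 14.7 ± 5.25, SD, n = 3; exact permutation test, two-sided p = 0.1, the smallest p that 3 against 3 allows). In bulk RNA, fewer cells with a transcript and less of it per cell cannot be told apart. UPF1 reads at 15 events were 41.3, 57.0 and 73.4 per 1000000 with siNT/siUPF1 and 56.4, 76.2 and 102 with siSFSWAP/siUPF1. These were 67.1% and 62.0% below the groups without UPF1 siRNA (exact permutation p = 0.1 each), and the 2 UPF1 knockdown groups overlapped (57.2 ± 16.1 against 78.0 ± 22.6, SD, n = 3; exact permutation p = 0.3). The cell line's epithelial genes KRT8 and KRT18 had 1541 to 3064 and 233 to 438 reads per library, the renal lineage gene PAX2 had 0 to 2, and the tables listed no event of LHX1 or of the blood and liver genes PTPRC, CD3E, ALB and HBB.

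The tables list the 3 libraries of a group without replicate numbers, so libraries are named here by their place in that list. The third siNT/siUPF1 library stood apart. Of the 3 non-target libraries it was the nearest to the siSFSWAP/siUPF1 mean at 165 of 232 changed introns (71.1%) and at 1537 of the 2630 changed exon events with a level in every library (58.4%), and its UPF1 reads were the highest of its group. Counts over reading frame classes and gene lists that change by over 1.5 times, or lose their direction, without it are given both ways.

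Intron sequences are shown first, because introns that fell and introns that rose differed in base composition. They are printed 5′ to 3′ from hg38. Capitals mark the first stop codon in the reading frame that runs in from the exon before, or, where none was met, the GT and AG at the intron ends. The first 4 introns were retained less after SFSWAP knockdown and the last 2 were retained more.
IFRD2 intron 3, chr3:50290295-50290387, minus strand: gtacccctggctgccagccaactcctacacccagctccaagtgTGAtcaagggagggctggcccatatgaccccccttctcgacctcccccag
ULK3 intron 2, chr15:74842196-74842279, minus strand: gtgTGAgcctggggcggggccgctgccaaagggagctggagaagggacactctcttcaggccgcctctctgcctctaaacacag
PIEZO1 intron 41, chr16:88720284-88720384, minus strand: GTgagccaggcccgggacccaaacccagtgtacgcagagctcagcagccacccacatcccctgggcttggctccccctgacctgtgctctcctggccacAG
TUBG2 intron 7, chr17:42665563-42665677, plus strand: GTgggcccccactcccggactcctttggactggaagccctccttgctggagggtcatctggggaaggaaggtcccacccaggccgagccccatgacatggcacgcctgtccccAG
U2SURP intron 9, chr3:143021386-143021472, plus strand: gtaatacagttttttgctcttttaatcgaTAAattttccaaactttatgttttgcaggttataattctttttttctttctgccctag
HNRNPH3 intron 8, chr10:68341681-68341758, plus strand: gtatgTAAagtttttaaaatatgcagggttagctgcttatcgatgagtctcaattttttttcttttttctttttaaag
GC content was 63.4%, 64.3%, 67.3% and 67.0% in the introns of IFRD2, ULK3, PIEZO1 and TUBG2, and 27.6% and 26.9% in those of U2SURP and HNRNPH3. The first 4 are among the largest decreases. The last 2 came from the gene lists below. Both lie under the lower quartile of the introns that rose, 30.7% GC. Larger increases reached 68.7%, at NSMF. The U2SURP intron had 1, 0 and 0 inclusion reads with siNT/siUPF1 and 7, 7 and 3 with siSFSWAP/siUPF1. It was called in none of the 6 fits that leave out a library.

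The exons shown next are those on which the reading frame results and the comparison of backgrounds turn. In OGT, SRSF6, SRRM1 and SAT1 the exon lies within an intron of the MANE transcript, the reference transcript shared by RefSeq and Ensembl, and capitals mark the first stop codon it brings in frame. In MON2, SNRNP48 and SNRPA1 capitals mark the exon, with 20 intron bases on each side.
OGT decoy exon in intron 4, chrX:71546344-71546496, plus strand: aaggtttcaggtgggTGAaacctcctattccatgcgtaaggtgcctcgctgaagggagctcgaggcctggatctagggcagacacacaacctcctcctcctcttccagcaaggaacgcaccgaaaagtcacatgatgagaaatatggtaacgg
SRSF6 exon in intron 2, chr20:43459305-43459420, plus strand: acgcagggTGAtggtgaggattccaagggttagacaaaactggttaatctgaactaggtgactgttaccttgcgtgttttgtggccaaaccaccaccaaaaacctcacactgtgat
SRRM1 exon in intron 3, chr1:24647079-24647208, plus strand: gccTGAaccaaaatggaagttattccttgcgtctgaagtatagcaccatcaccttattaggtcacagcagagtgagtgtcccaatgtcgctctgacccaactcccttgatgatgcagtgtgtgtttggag
SAT1 exon in intron 3, chrX:23784294-23784403, plus strand: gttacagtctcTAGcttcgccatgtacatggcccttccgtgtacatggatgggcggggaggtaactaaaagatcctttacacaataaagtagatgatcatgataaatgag
MON2 exon 28, chr12:62565994-62566051, plus strand: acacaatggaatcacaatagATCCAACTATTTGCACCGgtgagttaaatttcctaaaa
SNRNP48 exon in intron 4, chr6:7599653-7599700, plus strand: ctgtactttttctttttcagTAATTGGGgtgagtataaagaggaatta
SNRPA1 exon 6, chr15:101286194-101286313, minus strand: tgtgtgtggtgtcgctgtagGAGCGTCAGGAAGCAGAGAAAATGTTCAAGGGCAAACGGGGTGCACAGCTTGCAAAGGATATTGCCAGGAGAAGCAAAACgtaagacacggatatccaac
The stop codons TGA of the OGT, SRSF6 and SRRM1 exons start at exon positions 16, 9 and 4, counted from 1 at the 5′ end, and the TAG of the SAT1 exon starts at position 12. The MON2 exon is 18 nt long and keeps the frame, whereas the SNRNP48 exon of 8 nt and the SNRPA1 exon of 80 nt do not.

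In UPF1-depleted cells, more introns were retained less after SFSWAP knockdown than were retained more. Inclusion level, from 0 to 1, is the inclusion form's share once the reads of each form have been divided by its effective length, so for an intron it is the retained share. Of 5105 introns, 170 in 143 genes fell (3.33% of those tested) and 62 in 54 genes rose (1.21%), which makes 73.3% of the changes decreases (275 and 107 without the third siNT/siUPF1 library). An event was called changed at an adjusted p of at most 0.05 in a quasi-binomial logistic fit of inclusion against skipping reads, with the dispersion moderated by limma and Benjamini-Hochberg adjustment over all events of its kind. The log2 odds ratio from this fit is positive where inclusion was higher after SFSWAP knockdown. The median difference of mean level was 0.156 among the introns that fell and 0.115 among those that rose, and the groups did not overlap at 159 and 54 of them, against 923 of all 5105 introns (18.1%). The median level of the 170 introns was 0.297, 0.352 and 0.199 in the siNT/siUPF1 libraries and 0.0687, 0.0974 and 0.104 in the siSFSWAP/siUPF1 libraries. The third siNT/siUPF1 library was the lowest of its group, and the groups did not overlap. Over all introns tested, the median log2 odds ratio was -0.06.

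How many introns were called depended on the spread estimate. An intron's own replicate spread carried 13.5% of the weight in its moderated dispersion. With each intron's own dispersion alone no intron was called (449 had an unadjusted p under 0.05), and limma on log2 odds called 1 (635 at an unadjusted p under 0.05). Leaving out the first, the second or the third siNT/siUPF1 library gave 137, 132 and 382 calls, and leaving out the first, the second or the third siSFSWAP/siUPF1 library gave 87, 107 and 101.

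The introns with the largest decreases were 74 to 334 nt long. TUBG2, a gamma-tubulin gene of the microtubule-organizing center, had the largest. Its intron 7 was retained at 1, 0.799 and 0.622 in the siNT/siUPF1 libraries and 0.299, 0.174 and 0.366 in the siSFSWAP/siUPF1 libraries, so that the groups did not overlap (0.807 ± 0.189 (SD, n = 3) with siNT/siUPF1 and 0.28 ± 0.0978 (SD, n = 3) with siSFSWAP/siUPF1; log2 odds ratio -3.33, SE 0.62, adjusted p = 0.000578). Intron 41 of PIEZO1, a mechanically gated cation channel, had levels of 0.838, 0.745 and 0.55 in the siNT/siUPF1 libraries and 0.257, 0.279 and 0.217 in the siSFSWAP/siUPF1 libraries (log2 odds ratio -2.97, SE 0.54, adjusted p = 0.000541). Its levels fell from 0.711 to 0.251 on average without overlap. For intron 2 of ULK3, a kinase of the family that starts autophagy, levels were 0.728, 0.688 and 0.582 in the siNT/siUPF1 libraries and 0.296, 0.365 and 0.14 in the siSFSWAP/siUPF1 libraries (log2 odds ratio -2.59, SE 0.41, adjusted p = 8.05e-05). Here again every non-target library was above every knockdown library. CPSF3L, also called INTS11, encodes the endonuclease of the Integrator complex. Its intron 12 had levels of 0.789, 0.777 and 0.443 in the siNT/siUPF1 libraries and 0.421, 0.349 and 0.121 in the siSFSWAP/siUPF1 libraries, and the lowest non-target library lay close to the highest knockdown library (adjusted p = 0.012). ISYNA1, which makes inositol phosphate from glucose 6-phosphate, had levels of 0.729, 0.699 and 0.483 in the siNT/siUPF1 libraries and 0.208, 0.336 and 0.315 in the siSFSWAP/siUPF1 libraries at intron 5, which keeps the reading frame open (log2 odds ratio -1.85, SE 0.39, adjusted p = 0.00272). The remaining introns among the 8 largest belonged to IFRD2, RHOT2 and the read-through gene NEDD8-MDP1, with adjusted p values of 5.22e-05, 0.0407 and 0.00686 in the same fit.

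**Figure D1:**
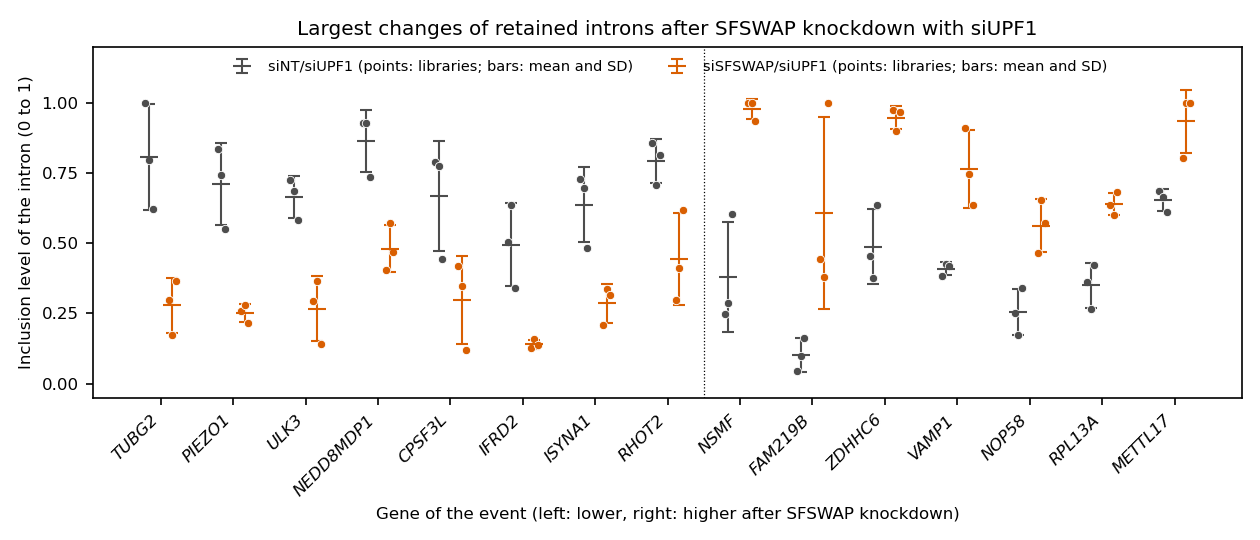
Inclusion level (retained share, 0 to 1, y axis) of introns with the largest changes (x axis, by gene); points are the 3 libraries of each group, bars the mean and SD, grey siNT/siUPF1 and orange siSFSWAP/siUPF1. The genes on the left fell (TUBG2 from 0.807 to 0.28) and those on the right rose (ZDHHC6 from 0.488 to 0.949), and no pair of groups overlaps because the events were chosen that way.

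Introns that rose included those of RPL13A and NOP58. The intron of RPL13A, a protein of the large ribosomal subunit and host of snoRNAs, was retained at 0.364, 0.264 and 0.424 in the siNT/siUPF1 libraries and 0.636, 0.601 and 0.682 in the siSFSWAP/siUPF1 libraries (log2 odds ratio 1.75, SE 0.29, adjusted p = 0.000132). All knockdown libraries lay above all non-target libraries. NOP58, a core protein of box C/D snoRNPs, had levels of 0.251, 0.175 and 0.34 in the siNT/siUPF1 libraries and 0.467, 0.653 and 0.571 in the siSFSWAP/siUPF1 libraries (log2 odds ratio 1.81, SE 0.51, adjusted p = 0.0257), a call that held in 1 of the 6 fits that leave out a library. In ZDHHC6, a palmitoyltransferase gene, the level was near 1 after knockdown, with 0.453, 0.375 and 0.637 in the siNT/siUPF1 libraries and 0.975, 0.902 and 0.968 in the siSFSWAP/siUPF1 libraries (log2 odds ratio 4.28, SE 0.95, adjusted p = 5.22e-05). Its inclusion reads did not rise, at 177, 154 and 133 with siNT/siUPF1 and 143, 133 and 111 with siSFSWAP/siUPF1. Its skipping reads fell from 59, 71 and 21 to 1, 4 and 1. VAMP1, a synaptic vesicle SNARE, had levels of 0.382, 0.426 and 0.421 in the siNT/siUPF1 libraries and 0.911, 0.747 and 0.638 in the siSFSWAP/siUPF1 libraries (log2 odds ratio 1.97, SE 0.62, adjusted p = 0.0478), and it was called in none of the 6 fits that leave out a library (adjusted p from 0.0564 to 0.190). The levels of the groups did not overlap at any of these introns. Their inclusion reads did overlap, and only skipping reads separated the groups. None of the introns that rose and are named here is an intron of the MANE transcript. NSMF, FAM219B and METTL17 also had large increases, with mean levels rising from 0.381 to 0.979, 0.102 to 0.608 and 0.655 to 0.935. The FAM219B mean rested on the third siSFSWAP/siUPF1 library at a level of 1, with the other knockdown libraries at 0.445 and 0.379.

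The introns that fell tended to be GC-rich and those that rose AT-rich. Median GC content was 62.7% in the 170 that fell, 37.6% in the 62 that rose and 54.2% in the introns not called. Median lengths were 121.5, 170 and 129 nt. The GC quartiles were 55.8% and 67.1% in introns that fell and 30.7% and 49.4% in introns that rose. Of the large increases named above, NSMF, METTL17, RPL13A and VAMP1 had 68.7%, 56.0%, 55.8% and 51.9% GC. FAM219B, ZDHHC6 and NOP58 had 48.8%, 38.6% and 32.5%. When the tested introns were split into 4 equal bins by GC content, the share that fell was 0.861%, 2.12%, 4.08% and 6.27% from the lowest to the highest bin, and the share that rose was 2.66%, 1.25%, 0.470% and 0.471%. The median log2 odds ratio over all introns of a bin passed from 0.21 through 0.05 and -0.16 to -0.34. GC content can also affect library preparation and counting, and its part in the result was not tested. Of 3710 retained introns within a coding region that bring in a stop codon or shift the frame, 138 fell (3.72%, against 3.33% of all introns) and 27 rose (0.728%, against 1.21%). Without the third siNT/siUPF1 library these were 227 and 40. Among 248 that keep the frame open, 7 fell (2.82%) and 1 rose (0.403%), with 15 and 1 without that library. Their median log2 odds ratios were -0.07 and -0.30.

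Skipped exons changed in both directions. Of 34006 events, 1450 (4.26%) in 634 genes were included more after SFSWAP knockdown and 1186 (3.49%) in 625 genes were included less, and 60 genes had events in each direction. The median difference of mean level was 0.183 for increases and 0.113 for decreases, and 668 increases but 315 decreases reached a difference of 0.2, which makes 68.0% of those changes increases against 55.0% of all calls. The median level of the exons that rose was 0.665, 0.608 and 0.815 with siNT/siUPF1 and 0.958, 0.935 and 0.962 with siSFSWAP/siUPF1. That of the exons that fell was 0.871, 0.871 and 0.879 against 0.546, 0.535 and 0.639. The groups did not overlap at 1175 of the exons that rose and 976 of those that fell, against 21.6% of all exon events tested.

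An exon's own spread carried 1.88% of the weight in its moderated dispersion. No exon was called with its own dispersion alone (4212 at an unadjusted p under 0.05), whereas limma on log2 odds called 70 increases and 144 decreases with a pseudocount of 0.5 (32.7% increases) and 230 and 299 with 1 (43.5% increases). Without the third siSFSWAP/siUPF1 library 633 rose and 807 fell (44.0% increases), a total of 1440. Calls numbered 1472 without the second siNT/siUPF1 library, 1452 and 1450 without the first and second siSFSWAP/siUPF1 libraries, and 3109 (1894 rose and 1215 fell) without the third siNT/siUPF1 library.

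The largest decreases included exons of 18 and 8 nt. MON2, which acts in endosome to Golgi traffic, had levels of 0.869, 0.905 and 0.831 in the siNT/siUPF1 libraries and 0.324, 0.371 and 0.425 in the siSFSWAP/siUPF1 libraries at its exon 28 (log2 odds ratio -3.39, SE 0.53, adjusted p = 9.83e-09). All non-target libraries were above 0.8 and all knockdown libraries below 0.5. In SNRNP48, a protein of the U11/U12 snRNP of the minor spliceosome, the 8 nt exon in intron 4 had levels of 0.549, 0.807 and 0.446 in the siNT/siUPF1 libraries and 0.062, 0.236 and 0.167 in the siSFSWAP/siUPF1 libraries (log2 odds ratio -3.15, SE 0.64, adjusted p = 1.3e-05). The snoRNA host RNA SNHG1 had levels of 0.872, 0.886 and 0.784 in the siNT/siUPF1 libraries and 0.226, 0.265 and 0.375 in the siSFSWAP/siUPF1 libraries at a 51 nt exon (log2 odds ratio -4.00, SE 0.24, adjusted p = 5.38e-44). A 39 nt exon of UCHL1, a neuronal deubiquitinase gene, went from near complete inclusion to 0.414, 0.45 and 0.607 (non-target libraries 0.983, 0.981 and 0.981; log2 odds ratio -5.85, SE 0.42, adjusted p = 6.62e-57). ATP2C1, the calcium pump of the Golgi, fell from 0.9 to 0.456 on average (log2 odds ratio -3.38, SE 0.67, adjusted p = 2.77e-06). In none of these did the groups overlap. At NOL8 the decrease was from 0.731 to 0.215 (adjusted p = 4.65e-05), and at the read-through gene RPL17-C18orf32 from 1 to 0.485 (adjusted p = 1.72e-18). SERBP1, an mRNA-binding protein gene, had the largest difference of means, but its non-target libraries ranged widely, at 0.647, 1 and 0.155, against 0, 0.0115 and 0 after knockdown.

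**Figure D2:**
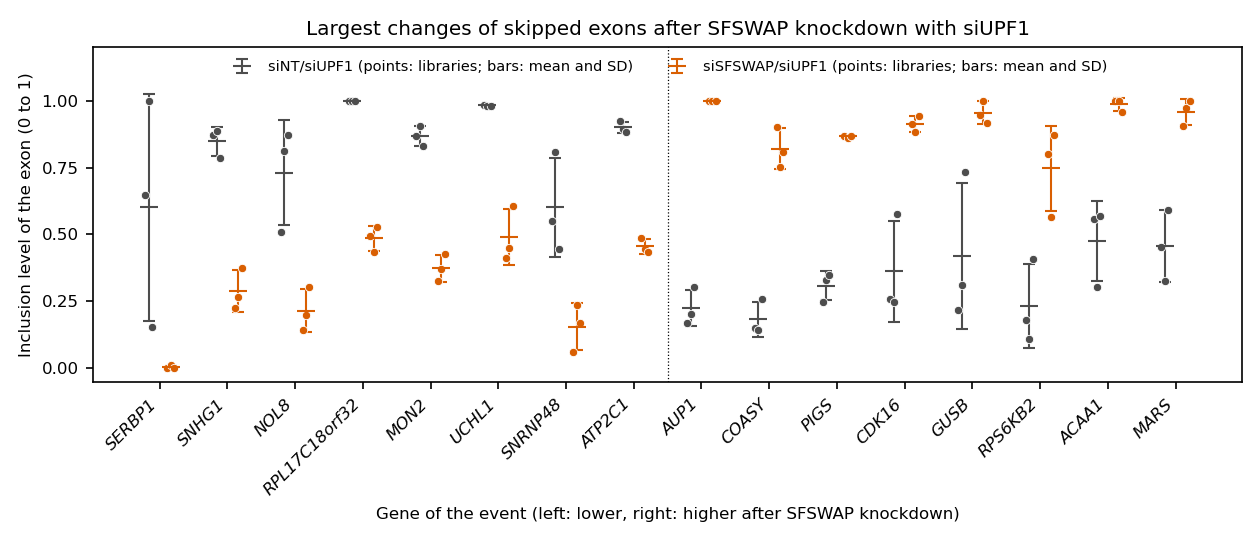
Inclusion level (0 to 1, y axis) of the 16 skipped exons with the largest changes (x axis, by gene); points are the 3 libraries of each group, bars the mean and SD, grey siNT/siUPF1 and orange siSFSWAP/siUPF1. On the left are decreases (MON2 from 0.868 to 0.374), on the right increases (COASY from 0.184 to 0.82), and the third siNT/siUPF1 point is the highest of its group at all 8 increases.

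Exons that rose were often close to fully included after knockdown. COASY encodes the enzyme of the last steps of coenzyme A synthesis, and its exon 4 had levels of 0.15, 0.142 and 0.258 in the siNT/siUPF1 libraries and 0.902, 0.751 and 0.808 in the siSFSWAP/siUPF1 libraries (log2 odds ratio 4.31, SE 0.45, adjusted p = 2.35e-23). The knockdown libraries were all above 0.7 and the non-target libraries all below 0.3. PIGS, a subunit of the GPI transamidase, had levels of 0.246, 0.331 and 0.349 in the siNT/siUPF1 libraries and 0.867, 0.861 and 0.869 in the siSFSWAP/siUPF1 libraries (log2 odds ratio 3.73, SE 0.86, adjusted p = 1.74e-06). RPS6KB2, a kinase of ribosomal protein S6, had levels of 0.182, 0.108 and 0.41 in the siNT/siUPF1 libraries and 0.801, 0.567 and 0.872 in the siSFSWAP/siUPF1 libraries (log2 odds ratio 3.52, SE 0.36, adjusted p = 4.53e-19). These did not overlap between groups either. Mean levels rose from 0.362 to 0.912 at the kinase gene CDK16 and from 0.421 to 0.955 at GUSB, the lysosomal beta-glucuronidase. At both genes the third siNT/siUPF1 library, at 0.578 and 0.732, was far nearer to the knockdown libraries than the other non-target libraries, and it was the highest non-target library at all 8 of the largest increases. MARS, the cytosolic methionyl-tRNA synthetase, rose from 0.457 to 0.958, the peroxisomal thiolase ACAA1 from 0.476 to 0.985 and AUP1, a lipid droplet protein, from 0.225 to 1 (adjusted p = 7.36e-08, 4.02e-06 and 0.000926 in the quasi-binomial fit). The AUP1 level of 1 rested on 4, 12 and 20 inclusion reads with no skipping read, and most of the reads of the event came from the non-target libraries.

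The 2 directions again differed in median base composition, and changed exons of both had shorter flanking introns at the median than exons not called. Exons that rose had a median GC content of 56.5% and median flanking introns of 535 nt upstream and 396.5 nt downstream. Exons that fell had 44.4% GC and flanking introns of 1102 and 984 nt, and exons not called had 48.0% and 1910 and 1921 nt. Called exons also had more reads, with medians per library of 177.4 where they rose, 235.8 where they fell and 104.7 where not called. The part of depth in these contrasts was not tested. With exons in 4 equal bins by the length of their flanking introns, 10.03% rose in the bin of the shortest, followed by 3.70%, 2.00% and 0.950% in the bins of longer ones. The share that fell declined as well, from 5.85% through 4.05% and 3.36% to 1.64%. By GC content, the share that rose climbed from 1.27% through 1.94% and 4.28% to 9.19%, while the share that fell dropped from 5.38% through 4.65% and 3.23% to 1.64%. The share that fell was 5.91% in the bin of the shortest exons (up to 83 nt) and 2.88%, 2.87% and 3.20% in the others.

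Changes were next read by what an exon does to the reading frame of the MANE transcript of its gene. Extra exons with a stop codon or a frame shift rose less often than all events, and the share that fell was near that of all events. More of them therefore fell than rose. Among coding exons whose skipping shifts the frame, more rose than fell. Of 9035 extra exons in coding introns that bring in a stop codon or a frame shift, 343 fell (3.80%, against 3.49% of all events) and 87 rose (0.963%, against 4.26%), with a median log2 odds ratio of -0.31 against 0.07 over all 34006 events. Their median level was low in every library, at 0.0169, 0.0350 and 0.0186 with siNT/siUPF1 and 0.0136, 0.0259 and 0.0145 with siSFSWAP/siUPF1. Of 1106 extra exons that keep the frame open, 12 fell (1.08%) and 22 rose (1.99%), both below the shares of all events (median 0.07). Among 4727 coding MANE exons with a length that is not a multiple of 3, 115 (2.43%) fell and 334 (7.07%) rose (median 0.53). Among 3802 coding MANE exons with a length that is a multiple of 3, 215 (5.65%) fell and 133 (3.50%) rose (median -0.09). In 524 MANE exons outside or partly outside the coding region 12 fell (2.29%) and 5 rose (0.954%). Of 1121 extra exons of untranslated or noncoding regions 22 fell (1.96%) and 10 rose (0.892%). The other 13682 events, whose junctions do not match the MANE transcript, had 467 decreases (3.41%) and 859 increases (6.28%). Without the third siNT/siUPF1 library the extra exons with a stop or shift had 482 decreases and 81 increases, and the coding exons that are not a multiple of 3 had 83 and 480. The coding exons that are a multiple of 3 then had 181 decreases and 182 increases, so that the excess of decreases in this class was lost.

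The medians by library show how wide the spread is. Over the 5494 extra exons with a stop or shift that were tested in both backgrounds, the median log2 ratio of inclusion to skipping reads was -3.83, -3.03 and -3.83 with siNT/siUPF1 and -4.04, -3.40 and -4.03 with siSFSWAP/siUPF1. The groups overlapped, and the second listed library of each was higher than the rest. Without UPF1 siRNA the medians were -4.52, -4.35 and -3.77 with siNT and -4.01, -3.98 and -3.49 with siSFSWAP, so that the lowest 2 were non-target libraries. For these exons the median log2 odds ratio of SFSWAP knockdown was -0.27 in the UPF1 knockdown background and 0.28 without UPF1 siRNA. In the UPF1 knockdown background 283 fell and 64 rose, and without UPF1 siRNA 108 fell and 262 rose. All 22458 shared exon events together had medians of 0.06 with and 0.22 without UPF1 siRNA, with 952 lower and 1102 higher in the first and 1066 lower and 1866 higher in the second. The 3537 shared coding exons that are not a multiple of 3 had median log2 odds ratios of 0.49 with and 0.15 without UPF1 siRNA, and the 3348 that are a multiple of 3 had -0.10 and 0.06. An inclusion level is a share of steady-state RNA, so a change in splicing and a change in the decay of 1 form cannot be told apart. UPF1 reads were 20.8 per 1000000 higher on average in the siSFSWAP/siUPF1 libraries than in the siNT/siUPF1 libraries (exact permutation p = 0.3), and their part in the result was not tested.

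**Figure D3:**
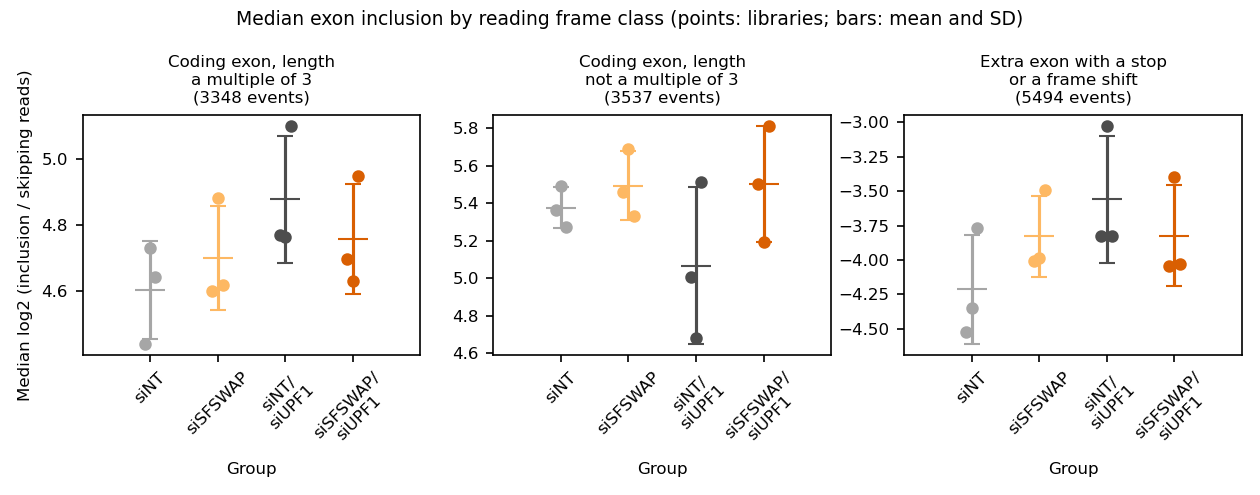
Median over exons of the log2 ratio of inclusion to skipping reads (y axis, log2 scale that does not start at 0 and differs by panel) in each of the 4 groups (x axis) for 3 reading frame classes; points are libraries, bars the mean and SD. With UPF1 siRNA the extra exons with a stop or shift lie at -4.04, -3.40 and -4.03 after SFSWAP knockdown against -3.83, -3.03 and -3.83 with siNT, and the groups overlap in every panel.

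Extra exons with a stop or shift and the largest decreases were in SNRNP48 (above), SLC25A36 and SAT1. SAT1 encodes spermidine/spermine acetyltransferase, which starts polyamine breakdown, and its intron 3 exon printed above had levels of 0.463, 0.662 and 0.306 in the siNT/siUPF1 libraries and 0.0715, 0.16 and 0.115 in the siSFSWAP/siUPF1 libraries (log2 odds ratio -2.99, SE 0.20, adjusted p = 8.78e-34). All knockdown libraries lay below all non-target libraries. SLC25A36, a mitochondrial pyrimidine nucleotide carrier, had levels of 0.624, 0.706 and 0.71 in the siNT/siUPF1 libraries and 0.27, 0.256 and 0.387 in the siSFSWAP/siUPF1 libraries at an exon in intron 4 (log2 odds ratio -2.34, SE 0.46, adjusted p = 2.8e-05), again without overlap. Increases in the same class were seen at ZNF655, CCDC130 and SH2B1, with mean levels rising from 0.156 to 0.595, 0.197 to 0.407 and 0.785 to 0.994 (adjusted p = 2.11e-05, 0.0195 and 0.00226 in the quasi-binomial fit). Among the coding exons that keep the frame, a 36 nt exon of the transcription coactivator gene SUPT20H fell from 0.811 to 0.401 and exon 13 of ODF2L from 0.923 to 0.518. Exon 15 of the phosphatase regulator PPP6R2 rose from 0.3 to 0.771 and exon 5 of INPPL1, the lipid phosphatase SHIP2, from 0.597 to 0.986. Of the frame-shifting coding exons, exon 39 of PLCB4, a phospholipase C, fell from 0.915 to 0.5, and exon 9 of UBXN6 rose from 0.401 to 0.832.

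**Figure D4:**
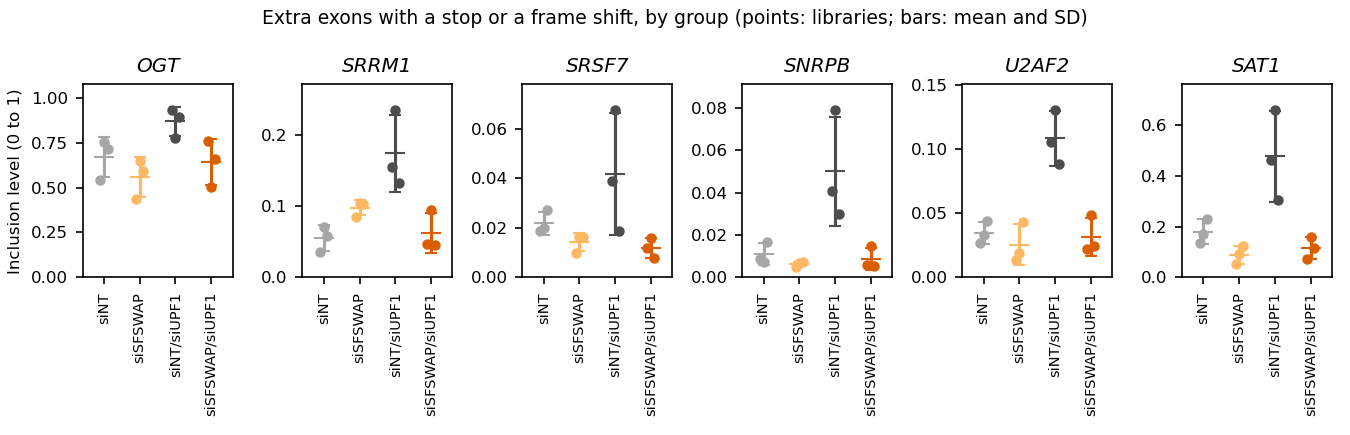
Inclusion level (0 to 1, y axis, scaled per panel from 0) of 6 extra exons with a stop codon or frame shift in the 4 groups (x axis); points are libraries, bars the mean and SD. In the siSFSWAP/siUPF1 group all 6 have lower means than in siNT/siUPF1 (SAT1 0.477 to 0.116), and at SRRM1 the siSFSWAP group without UPF1 siRNA is above siNT.

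The decoy exon of OGT, the event the UPF1 knockdown was set up to reveal, was included less after SFSWAP knockdown. OGT is the single enzyme that adds O-GlcNAc to nuclear and cytosolic proteins. The longer form of the decoy, chrX:71546344-71546496, lies between exon 4, which ends at position 71544635, and exon 5, which begins at 71547907. Inclusion reads were 179, 178 and 213 with siNT/siUPF1 and 160, 148 and 216 with siSFSWAP/siUPF1, and skipping reads were 5, 20 and 10 against 20, 57 and 44. Inclusion reads were thus of like size in both groups, whereas skipping reads were higher in the knockdown group, with 20 in a library of each. Reads that lie within the exon count as inclusion, and RNA that keeps intron 4 gives such reads too, so the level is not the share of mRNA with the decoy spliced in. The inclusion levels were 0.934, 0.778 and 0.893 in the siNT/siUPF1 libraries and 0.759, 0.505 and 0.659 in the siSFSWAP/siUPF1 libraries (0.868 ± 0.081 (SD, n = 3) with siNT/siUPF1 and 0.641 ± 0.128 (SD, n = 3) with siSFSWAP/siUPF1). All knockdown libraries lay below all non-target libraries, though the highest knockdown library, at 0.759, was just under the lowest non-target library, at 0.778 (log2 odds ratio -1.90, SE 0.50, adjusted p = 0.00179; exact permutation p = 0.1). The form that ends at 71546489 gave nearly the same result from mostly the same reads (log2 odds ratio -1.88, SE 0.50, adjusted p = 0.00202). The spread between libraries was larger than the fit assumed, with a dispersion of 7.28 from the event's own replicates against 2.94 after moderation, and limma gave an adjusted p of 0.244. Without the second siSFSWAP/siUPF1 library the difference of -0.227 became -0.160 and was no longer called (adjusted p = 0.108). Without UPF1 siRNA the decoy levels were 0.543, 0.755 and 0.715 with siNT and 0.437, 0.649 and 0.592 with siSFSWAP, which overlapped and did not pass the test (log2 odds ratio -0.82, SE 0.34, adjusted p = 0.0938). The effects in the 2 backgrounds were not shown to differ (difference of log2 odds ratios -1.08, SE 0.68, adjusted p = 0.989).

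Other genes the study names for retained introns or decoy exons differed in response. IFRD2, an interferon-related gene whose product binds ribosomes, lost retention at neighbouring introns. Its intron 3, printed above, had levels of 0.504, 0.638 and 0.342 in the siNT/siUPF1 libraries and 0.126, 0.157 and 0.136 in the siSFSWAP/siUPF1 libraries (log2 odds ratio -2.54, SE 0.39, adjusted p = 5.22e-05). Intron 2 had levels of 0.403, 0.414 and 0.255 in the siNT/siUPF1 libraries and 0.0643, 0.14 and 0.106 in the siSFSWAP/siUPF1 libraries (log2 odds ratio -2.18, SE 0.40, adjusted p = 0.00043), and at both introns all knockdown libraries were below all non-target libraries. Intron 10 did not pass the test (adjusted p = 0.0725). Skipped exon events of IFRD2 that rose were a 102 nt exon at 0.689, 0.734 and 0.956 in the siNT/siUPF1 libraries and 1, 0.969 and 1 in the siSFSWAP/siUPF1 libraries (adjusted p = 0.00875) and exon 7 (adjusted p = 0.022), where the groups overlapped. FN1, the fibronectin gene, fell at 1 intron, with levels of 0.365, 0.443 and 0.431 in the siNT/siUPF1 libraries and 0.221, 0.256 and 0.287 in the siSFSWAP/siUPF1 libraries (log2 odds ratio -1.05, SE 0.31, adjusted p = 0.0459), but it was called in none of the 6 fits that leave out a library (adjusted p from 0.0540 to 0.220). The tested OGT intron, intron 13, did not pass the test (adjusted p = 0.975), and OGT intron 4 was not tested here. At SF3B1, the U2 snRNP protein that contacts the branchpoint, the retained intron had levels of 0.705, 0.546 and 0.754 in the siNT/siUPF1 libraries and 0.828, 1 and 0.756 in the siSFSWAP/siUPF1 libraries (adjusted p = 0.609). For the exons of the study's genes ARGLU1, SFSWAP and MGEA5, the gene of OGA, none passed the test, and neither did those of SF3B1 and FN1. The 5 tested exons in ARGLU1 intron 2 had levels of at most 0.0464 in every library. In all, 3 of 6 retained introns of these genes fell (50%, against 3.33% of all introns) and none rose. They were the 2 introns of IFRD2 and the FN1 intron above. The paper had shown IFRD2 as an example of increased intron excision. Of 46 skipped exon events 2 fell and 2 rose (4.35% each, near the 3.49% and 4.26% of all exon events).

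The genes of splicing regulators were next read by role, from lists chosen with results of these data known. SR proteins bind exonic enhancers and promote exon recognition. Of their 88 exon events 22 fell (25%, against 3.49% of all events) and 1 rose, with a median log2 odds ratio of -0.39 against 0.07 over all events. The decreases were in SRSF2, SRSF3, SRSF6, SRSF7, SRSF10, TRA2A and TRA2B, and several of them are alternative forms of 1 exon that share reads. The SRSF6 exon printed above had levels of 0.557, 0.609 and 0.292 in the siNT/siUPF1 libraries and 0.209, 0.231 and 0.19 in the siSFSWAP/siUPF1 libraries (log2 odds ratio -1.89, SE 0.22, adjusted p = 7.11e-13). Although the third siNT/siUPF1 library was much lower than its fellows, it stayed above the knockdown libraries. The long exon in SRSF7 intron 3, with a stop codon in frame, had levels of 0.0387, 0.0677 and 0.0187 in the siNT/siUPF1 libraries and 0.012, 0.0159 and 0.00775 in the siSFSWAP/siUPF1 libraries (log2 odds ratio -1.81, SE 0.27, adjusted p = 3.06e-09). In SRSF3 the levels of the exon in intron 3 overlapped, at 0.0611, 0.141 and 0.0445 in the siNT/siUPF1 libraries and 0.0366, 0.0647 and 0.0347 in the siSFSWAP/siUPF1 libraries (log2 odds ratio -0.89, SE 0.15, adjusted p = 6.43e-07). SRSF2 fell from 0.0238 to 0.00638 at an exon of its untranslated region (log2 odds ratio -1.88, SE 0.36, adjusted p = 1.92e-06). The only change among 16 retained introns of the list was an increase in SRSF7, from 0.413 to 0.664 (log2 odds ratio 1.64, SE 0.38, adjusted p = 0.00493). This intron adjoins the SRSF7 exon above, so their common junction counts in both events. Its inclusion reads were 279, 265 and 366 with siNT/siUPF1 and 191, 229 and 287 with siSFSWAP/siUPF1. Its skipping reads fell from 150, 258 and 94 to 38, 53 and 34. Without the third siNT/siUPF1 library 1 intron of the list fell and 3 rose, and 26 exon events fell and 4 rose.

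Exon events in genes of hnRNP proteins, many of which repress exons, fell more often than all events and rose at a share near that of all events. Of 205 exon events, 24 fell (11.7%, against 3.49% of all events) and 10 rose (4.88%, against 4.26%), with a median of -0.04. HNRNPH3 had the lowest adjusted p of the list. Its exon 3 had levels of 0.642, 0.577 and 0.778 in the siNT/siUPF1 libraries and 0.931, 0.895 and 0.922 in the siSFSWAP/siUPF1 libraries (log2 odds ratio 2.44, SE 0.19, adjusted p = 4.1e-31), all higher after knockdown, and its AT-rich intron 8 printed above was retained slightly more, at 0.059, 0.0587 and 0.0574 in the siNT/siUPF1 libraries and 0.0875, 0.0972 and 0.0723 in the siSFSWAP/siUPF1 libraries (log2 odds ratio 0.60, SE 0.16, adjusted p = 0.0257). PCBP2, a poly(C)-binding protein, had levels of 0.734, 0.717 and 0.673 in the siNT/siUPF1 libraries and 0.446, 0.512 and 0.551 in the siSFSWAP/siUPF1 libraries at its 39 nt exon 12 (log2 odds ratio -1.22, SE 0.13, adjusted p = 2.1e-14). Exon 3 of HNRNPM rose from 0.892 to 0.974 and an intron of HNRNPM fell from 0.668 to 0.517 (adjusted p = 1.55e-11 and adjusted p = 2.9e-06, quasi-binomial fit). Intron 4 of PTBP1, a repressor of neuronal exons, fell from 0.274 to 0.176 without overlap (log2 odds ratio -0.82, SE 0.14, adjusted p = 0.000427). Of 41 introns of the list, 3 fell and 2 rose (7.32% and 4.88%, against 3.33% and 1.21% of all introns). The HNRNPA1 intron among them was at 1 in all non-target libraries and at 0.313, 1 and 0.321 after knockdown, so that the second knockdown library did not differ from the non-target libraries.

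Branchpoint and U2 factors include the proteins with which SFSWAP shares its SURP domains. Of 112 exon events, 10 fell and 10 rose (8.93% each, against 3.49% and 4.26% of all events), with a median of -0.03. Without the third siNT/siUPF1 library 10 fell and 16 rose. SNRPA1, a U2 snRNP protein, rose at exon 6, with levels of 0.584, 0.64 and 0.721 in the siNT/siUPF1 libraries and 0.851, 0.856 and 0.914 in the siSFSWAP/siUPF1 libraries (log2 odds ratio 1.94, SE 0.21, adjusted p = 1.22e-16). U2AF2, the large subunit of the U2 auxiliary factor, fell at an exon with a stop codon in intron 5, with levels of 0.105, 0.131 and 0.0886 in the siNT/siUPF1 libraries and 0.0221, 0.0487 and 0.0242 in the siSFSWAP/siUPF1 libraries (log2 odds ratio -1.86, SE 0.39, adjusted p = 3.02e-05). Exon 8 of RBM5, a tumor suppressor and splicing factor, had levels of 0.844, 0.87 and 0.856 in the siNT/siUPF1 libraries and 0.591, 0.369 and 0.704 in the siSFSWAP/siUPF1 libraries (log2 odds ratio -2.24, SE 0.55, adjusted p = 0.00122). All 3 separated the groups. SF1, the branchpoint-binding protein, had 4 events lower and 7 higher; the event with the lowest adjusted p overlapped between groups, at 0.781, 0.439 and 0.749 in the siNT/siUPF1 libraries and 0.911, 0.758 and 0.903 in the siSFSWAP/siUPF1 libraries. Of 35 introns, those of U2AF1L4, from 0.494 to 0.161, and CHERP, a SURP domain protein, from 0.151 to 0.058, fell (adjusted p = 0.000262 and adjusted p = 0.0206, quasi-binomial fit). The intron of U2SURP printed above rose, with levels of 0.00744, 0 and 0 in the siNT/siUPF1 libraries and 0.0734, 0.114 and 0.0322 in the siSFSWAP/siUPF1 libraries (adjusted p = 0.0466), from close to no retention in the non-target libraries. It was called in none of the 6 fits that leave out a library (adjusted p from 0.0612 to 0.185).

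Among other splicing regulators 40 of 357 exon events fell (11.2%, against 3.49% of all events) and 9 rose (2.52%, against 4.26%), with a median of -0.18. In SNRPB, the Sm protein B gene, the exon in intron 2 with an in-frame stop had levels of 0.0408, 0.0792 and 0.0299 in the siNT/siUPF1 libraries and 0.00567, 0.0149 and 0.00541 in the siSFSWAP/siUPF1 libraries (log2 odds ratio -2.60, SE 0.26, adjusted p = 8.63e-22). PNISR, an SR-related protein gene, had levels of 0.923, 0.904 and 0.878 in the siNT/siUPF1 libraries and 0.478, 0.612 and 0.656 in the siSFSWAP/siUPF1 libraries at exon 10 (log2 odds ratio -2.74, SE 0.38, adjusted p = 2.92e-12). SRRM1 and SRRM2, SR-related matrix proteins of the spliceosome, had 8 and 7 events lower. The SRRM1 exon printed above had levels of 0.155, 0.236 and 0.133 in the siNT/siUPF1 libraries and 0.0473, 0.0944 and 0.0457 in the siSFSWAP/siUPF1 libraries (log2 odds ratio -1.65, SE 0.28, adjusted p = 2.92e-07), and a 55 nt SRRM2 exon had levels of 0.972, 0.971 and 0.978 in the siNT/siUPF1 libraries and 0.852, 0.809 and 0.938 in the siSFSWAP/siUPF1 libraries (log2 odds ratio -2.38, SE 0.38, adjusted p = 1.61e-08). None of these 4 overlapped between groups. Introns of LUC7L3, TIAL1 and SNRPB fell, 3 of 60, from 0.315 to 0.165, 0.116 to 0.0687 and 0.913 to 0.785, and without the third siNT/siUPF1 library 1 intron also rose. The list of kinases that phosphorylate splicing proteins had 1 increase in 51 exon events, at CDK11B exon 6 with overlapping groups, and none of 9 introns. In that list 1 intron rose when the third siNT/siUPF1 library was left out.

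NMD factors themselves had 9 of 91 exon events lower (9.89%, against 3.49% of all events) and 1 higher (1.10%, against 4.26%), with a median of -0.38. MAGOHB, an exon junction complex protein, fell at an exon of intron 1, with levels of 0.282, 0.385 and 0.193 in the siNT/siUPF1 libraries and 0.116, 0.189 and 0.129 in the siSFSWAP/siUPF1 libraries (log2 odds ratio -1.23, SE 0.27, adjusted p = 0.000386). Its paralog MAGOH rose at exon 3 from 0.716 to 0.808, with overlapping groups (adjusted p = 0.00116), and reads can be shared between such paralogs. RBM8A, their partner in the complex, fell slightly at exon 3 from 0.992 to 0.965 (adjusted p = 0.00306). GSPT1, the release factor eRF3a, fell at exon 3 from 0.999 to 0.961 (adjusted p = 0.000358). None of 18 retained introns of the list changed.

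snoRNA host genes, whose introns carry small nucleolar RNAs and whose spliced RNA is often degraded by NMD, had the largest share of changed exons among the lists. Of 184 events 59 fell (32.1%, against 3.49% of all events) and 11 rose (5.98%, against 4.26%), with a median of -0.62. Many are overlapping events of a few genes, with 18 decreases in NOP56, 17 in GAS5, 8 in TAF1D, and 7 each in SNHG1 and SNHG5. SNHG5 had levels of 0.967, 0.957 and 0.952 in the siNT/siUPF1 libraries and 0.773, 0.759 and 0.874 in the siSFSWAP/siUPF1 libraries at an 85 nt exon (log2 odds ratio -2.57, SE 0.22, adjusted p = 1.79e-25), and a 23 nt exon of GAS5 had levels of 0.981, 0.97 and 0.967 in the siNT/siUPF1 libraries and 0.828, 0.848 and 0.885 in the siSFSWAP/siUPF1 libraries (log2 odds ratio -2.72, SE 0.25, adjusted p = 4.29e-20). Neither overlapped. Of their 42 introns, 9 were higher (21.4%, against 1.21% of all introns), 6 of them in GAS5, and 4 were lower (9.52%, against 3.33%). A SNHG1 intron had levels of 0.106, 0.0822 and 0.209 in the siNT/siUPF1 libraries and 0.357, 0.283 and 0.309 in the siSFSWAP/siUPF1 libraries (log2 odds ratio 1.74, SE 0.26, adjusted p = 5.22e-05) and a GAS5 intron had 0.0669, 0.0576 and 0.15 in the siNT/siUPF1 libraries and 0.172, 0.208 and 0.218 in the siSFSWAP/siUPF1 libraries (log2 odds ratio 1.53, SE 0.23, adjusted p = 7.95e-05). In both, the third siNT/siUPF1 library was the highest of the non-target libraries and still under the knockdown libraries. The SNHG1 intron adjoins the 51 nt SNHG1 exon that fell, so their common junction counts in both events. Its inclusion reads were 211, 240 and 287 with siNT/siUPF1 and 212, 324 and 229 with siSFSWAP/siUPF1. Its skipping reads fell from 601, 906 and 368 to 129, 278 and 173. At the GAS5 intron inclusion reads were 355, 295 and 393 against 287, 417 and 365. Skipping reads there fell from 1709, 1664 and 767 to 475, 548 and 451. Only skipping reads separated the groups. NOP56, a core box C/D snoRNP protein, had an intron that fell (log2 odds ratio -1.87, SE 0.30, adjusted p = 5.72e-05). Levels of the NOP56 intron were 0.909, 0.825 and 0.785 in the siNT/siUPF1 libraries and 0.599, 0.554 and 0.573 in the siSFSWAP/siUPF1 libraries.

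Cytosolic ribosomal protein genes had 28 of 434 exon events lower (6.45%, against 3.49% of all events) and 39 higher (8.99%, against 4.26%), with a median of 0.14. Of their 110 introns 9 were lower (8.18%, against 3.33% of all introns) and 2 higher (1.82%, against 1.21%; 14 and 7 without the third siNT/siUPF1 library). RPL11 rose at a 210 nt exon, with levels of 0.867, 0.641 and 0.937 in the siNT/siUPF1 libraries and 0.99, 0.957 and 0.941 in the siSFSWAP/siUPF1 libraries (log2 odds ratio 2.59, SE 0.49, adjusted p = 3.99e-07). RPL10 fell at a 69 nt exon, from 0.945 to 0.878 (log2 odds ratio -1.28, SE 0.21, adjusted p = 1.7e-07). Events at RPS2 and RPL36A had low adjusted p values as well, but each rested on particular libraries, with non-target levels of 1, 0.917 and 1 and 0.151, 1 and 0.166 against 1 in all knockdown libraries. Ribosomal protein genes have many processed pseudogenes, and reads at them are uncertain to that extent.

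In the O-GlcNAc and hexosamine pathway 3 of 61 exon events fell (4.92%, against 3.49% of all events), 2 of them the OGT decoy forms and 1 in GFPT2, and 7 rose (11.5%, against 4.26%), with a median of 0.57. GPI, the isomerase that makes fructose 6-phosphate, the substrate of the hexosamine pathway, rose at a 36 nt exon with levels of 0.785, 0.678 and 0.896 in the siNT/siUPF1 libraries and 0.966, 0.915 and 0.986 in the siSFSWAP/siUPF1 libraries (log2 odds ratio 2.58, SE 0.64, adjusted p = 0.000206). AMDHD2, which removes the acetyl group of N-acetylglucosamine 6-phosphate, had 3 events higher, with levels of 0.114, 0.556 and 0.928 in the siNT/siUPF1 libraries and 1, 1 and 1 in the siSFSWAP/siUPF1 libraries at exon 4. The non-target libraries spread over most of the range, at a mean of 23.2 reads per library. None of the 8 retained introns of the list changed.

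Among the remaining lists, DNA repair, autophagy and mitochondrial complex I genes had more exon events higher than lower. All exon events together did so too (1450 against 1186). DNA repair genes had 28 of 463 exon events higher (6.05%, against 4.26% of all events) and 15 lower (3.24%, near the 3.49% of all events), with a median of 0.42. Without the third siNT/siUPF1 library 40 were higher and 9 lower. POLD2, a DNA polymerase delta subunit, had levels of 0.762, 0.51 and 0.895 in the siNT/siUPF1 libraries and 0.972, 0.967 and 0.969 in the siSFSWAP/siUPF1 libraries (log2 odds ratio 3.78, SE 0.81, adjusted p = 1.17e-07), and ERCC2, the helicase of TFIIH, had 0.359, 0.318 and 0.645 in the siNT/siUPF1 libraries and 0.88, 0.939 and 0.92 in the siSFSWAP/siUPF1 libraries at exon 8 (log2 odds ratio 3.96, SE 0.98, adjusted p = 2.19e-05). Of 69 introns 1 fell, in LIG1, and 6 fell without the third siNT/siUPF1 library. Autophagy genes had 11 exon events higher (7.19% of theirs, against 4.26% of all events) and 2 lower (1.31%, against 3.49%), with a median of -0.03 against 0.07 over all events. The increases came from 3 genes, with 5 in WDR45, 4 in BECN1 and 2 in ATG4B. BECN1, a subunit of the kinase complex that starts autophagosomes, had levels of 0.256, 0.322 and 0.769 in the siNT/siUPF1 libraries and 0.943, 0.915 and 0.922 in the siSFSWAP/siUPF1 libraries at exon 5 (log2 odds ratio 4.01, SE 0.73, adjusted p = 2.06e-09). In each of POLD2, ERCC2 and BECN1 the third siNT/siUPF1 library was the highest of the non-target libraries. ULK3 (above) and WDR45, from 0.665 to 0.37 (adjusted p = 0.0422), fell at an intron each. Mitochondrial complex I genes had 13 exon events higher, all in NDUFV1, and 4 lower of 148 (8.78% of the list higher, median -0.28), with levels of 0.708, 0.728 and 0.954 in the siNT/siUPF1 libraries and 0.97, 0.952 and 0.965 in the siSFSWAP/siUPF1 libraries at NDUFV1 exon 7, which overlapped. An intron of NDUFB10 fell from 0.361 to 0.224 and a 3042 nt intron of NDUFA10 rose from 0.112 to 0.204 (adjusted p = 0.000578 and adjusted p = 0.00144, quasi-binomial fit), and without the third siNT/siUPF1 library 2 introns of this list fell. Aminoacyl-tRNA synthetase genes had 15 of 196 events lower (7.65%, against 3.49% of all events) and 7 higher (3.57%, against 4.26%), with a median of 0.12 and with FARSB at 0.349, 0.5 and 0.315 in the siNT/siUPF1 libraries and 0.129, 0.105 and 0.196 in the siSFSWAP/siUPF1 libraries for a stop-containing exon of intron 2 (log2 odds ratio -1.89, SE 0.36, adjusted p = 1.07e-05). Centrosome, tubulin and condensin genes had 10 of 210 lower and 8 higher (median -0.31), and these shares of 4.76% and 3.81% are near the 3.49% and 4.26% of all events. In SMC2, a condensin subunit, the 45 nt exon 7 was included fully in the non-target libraries and at 0.814, 0.822 and 0.865 after knockdown (adjusted p = 3.34e-18).

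Exons that lie wholly inside an intron listed as retained changed in both directions. The class was set by position alone, so it holds coding exons of the MANE transcript as well as extra exons. It is therefore not a set of decoy exons. Of 182 such events in 83 genes, 11 fell (6.04%, against 3.49% of all exon events) and 20 rose (11.0%, against 4.26%), with a median log2 odds ratio of 0.39. RSRP1, an arginine/serine-rich protein gene, fell at a 318 nt exon in intron 3 with an in-frame stop, with levels of 0.533, 0.694 and 0.56 in the siNT/siUPF1 libraries and 0.276, 0.272 and 0.461 in the siSFSWAP/siUPF1 libraries (log2 odds ratio -1.53, SE 0.37, adjusted p = 0.000997). A 19 nt exon of GAS5 had levels of 0.884, 0.812 and 0.815 in the siNT/siUPF1 libraries and 0.427, 0.429 and 0.573 in the siSFSWAP/siUPF1 libraries (log2 odds ratio -2.64, SE 0.27, adjusted p = 1.9e-17). The groups did not overlap at either exon. ACP1 and HNRNPA2B1 fell less, from 0.864 to 0.749 and from 0.958 to 0.913 (adjusted p = 0.0385 and 0.0143, quasi-binomial fit). Among increases, exon 5 of C1orf35 had levels of 0.37, 0.287 and 0.653 in the siNT/siUPF1 libraries and 0.879, 0.678 and 0.783 in the siSFSWAP/siUPF1 libraries (log2 odds ratio 2.18, SE 0.46, adjusted p = 5.04e-05), and a 37 nt exon of ATXN2L, a regulator of stress granules, had levels of 0.0159, 0.0263 and 0.0631 in the siNT/siUPF1 libraries and 0.332, 0.174 and 0.214 in the siSFSWAP/siUPF1 libraries (log2 odds ratio 2.84, SE 0.90, adjusted p = 0.00798). Exon 8 of ITFG2 rose from 0.609 to 0.908 (adjusted p = 0.000836) and exon 12 of the protease gene FURIN from 0.813 to 1 (adjusted p = 0.00447). The exons of C1orf35, ITFG2 and FURIN are coding exons of the MANE transcript.

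The effect of SFSWAP knockdown was then set against that in cells without UPF1 siRNA, which shares no library with it. There, 564 of 5845 introns fell (9.65%) and 73 rose (1.25%), and 1432 of 33839 exon events fell (4.23%) and 2698 rose (7.97%). Of 2795 introns tested in both backgrounds, 147 were called with and 320 without UPF1 siRNA. Of the 97 called in both, 84 fell in both, 12 rose in both and 1 went in opposite directions. Those with the same direction are 65.3% of the first list and 30.0% of the second. Of 22458 shared exon events, 1177 were called in both, of which 665 rose in both, 507 fell in both and 5 went in opposite directions. Those with the same direction are 57.1% of the 2054 called with UPF1 siRNA and 40.0% of the 2932 called without it. Introns called in the UPF1 knockdown background had the same sign without UPF1 siRNA at 94.6%, and exons at 92.9%. Across events the log2 odds ratios had a Pearson correlation of 0.43 over the introns and 0.59 over the exons, where events of a gene share reads and all values of a background share its libraries. Another 85 introns and 582 exon events called in the UPF1 knockdown background were not among the events tested without UPF1 siRNA.

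**Figure D5:**
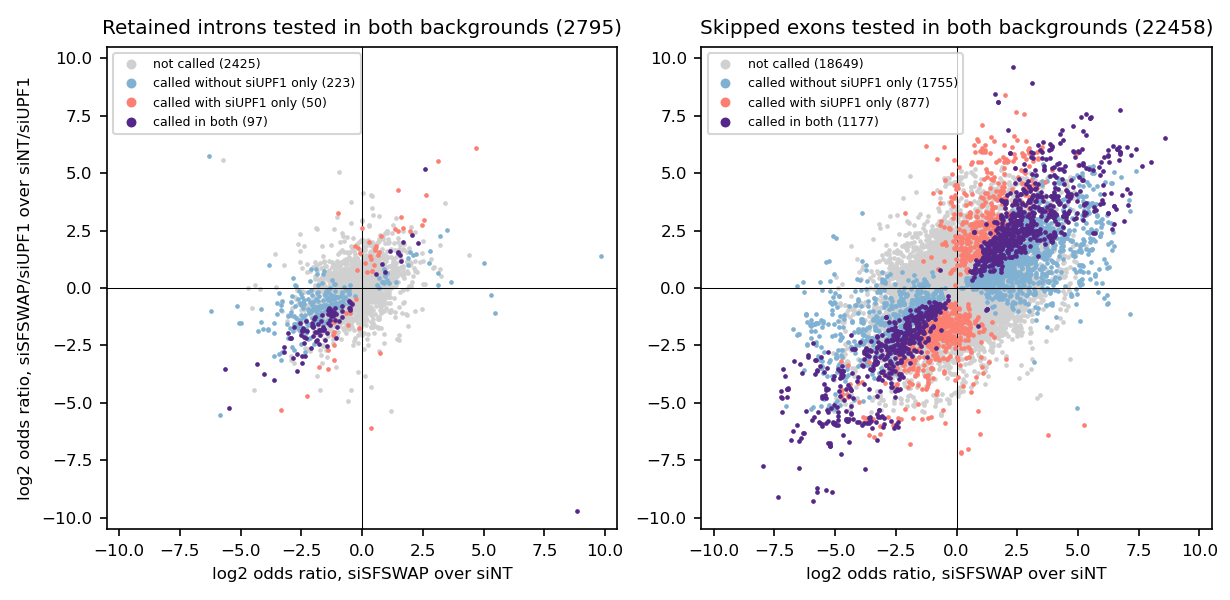
Log2 odds ratio of SFSWAP knockdown without UPF1 siRNA (x axis) and with UPF1 siRNA (y axis) for 2795 retained introns (left) and 22458 skipped exons (right) tested in both; each point is an event, colored by the background in which it was called. Events called in both (97 and 1177) lie mostly in the lower left and upper right parts of the plots.

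The difference between the backgrounds passed its own test at few events. It was called at 1 of 2795 introns (0.0358%) and 2 of 22458 exon events (0.00891%), with 142 and 905 at an unadjusted p under 0.05. The intron, 1066 nt long, is in CREBZF, a bZIP transcription regulator. It had levels of 0.236, 0.238 and 0.266 in the siNT/siUPF1 libraries and 0.209, 0.211 and 0.253 in the siSFSWAP/siUPF1 libraries in the UPF1 knockdown background, which overlapped, but 0.554, 0.401 and 0.478 with siNT and 0.207, 0.2 and 0.19 with siSFSWAP alone (difference of log2 odds ratios 1.65, SE 0.23, adjusted p = 0.000552). SNRPA1 exon 6 rose only in the UPF1 knockdown background (values above), and without UPF1 siRNA had levels of 0.918, 0.909 and 0.939 with siNT and 0.879, 0.927 and 0.873 with siSFSWAP (difference of log2 odds ratios 2.52, SE 0.40, adjusted p = 0.00461). The non-target libraries with UPF1 siRNA were the lowest of the 4 groups. The SRRM1 exon with a stop codon fell in the UPF1 knockdown background and rose without UPF1 siRNA, where it had 0.0351, 0.0712 and 0.0585 with siNT and 0.0855, 0.105 and 0.103 with siSFSWAP (difference of log2 odds ratios -2.51, SE 0.45, adjusted p = 0.0263). Limma called none of the 3 (150 introns and 1245 exons at an unadjusted p under 0.05). When each of the 12 libraries was left out in turn, CREBZF was called 12 times, SNRPA1 9 times and SRRM1 6 times, and 27 exons were called without the third siNT/siUPF1 library. The next exon events by adjusted p were the stop-containing exon in RBX1 intron 2, from 0.191 to 0.0426 with and 0.0428 to 0.0456 without UPF1 siRNA (difference of log2 odds ratios -2.55, SE 0.50, adjusted p = 0.0797), and events in RSRC2, DNAJC2 and HNRNPH3, none of which passed. Among introns MSTO1 came next, from 0.0913 to 0.428 with and 0.358 to 0.226 without UPF1 siRNA (difference of log2 odds ratios 4.27, SE 0.99, adjusted p = 0.349), followed by HMGCS1, EIF3G, ACADVL and KAT8.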

How the data were processed

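PolyA RNA-seq of TG-treated HEK293A-TOA cells was analysed in 4 groups of 3 biological replicates, taken from the labels. Side 1 of each table was read as siNT and side 2 as siSFSWAP, from the paper's definition of the inclusion level difference. The authors trimmed reads with cutadapt 1.9.1, aligned them with STAR 2.7 to GRCh38.p8 with a RefSeq annotation supplemented with predicted decoy exons, and counted events with rMATS. The deposited counts are raw reads of the inclusion and the skipping form, junction and exon reads together, with 3 libraries joined in 1 cell and no replicate numbers. The deposited columns of the authors' own comparison (p-value, FDR, difference of inclusion level) were not used.

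Per event, a two-sided quasi-binomial logistic regression was fitted in R 4.3.3. Its Pearson dispersion was moderated with limma 3.58.1 along a trend on depth and floored at 1, and an F test was made on the deviance. Benjamini-Hochberg adjustment took in all kept events of a kind, with calls at 0.05. Backgrounds were compared in 1 fit of all 12 libraries by a Wald test of the difference of log2 odds ratios. Single values were compared by two-sided exact permutation tests over libraries. Exon numbers, frames and GC content were read from hg38 and GENCODE 44 MANE transcripts. Named events are those with the largest differences in each direction (non-overlapping groups, 50 or more reads on average), all tested events of the genes the study names, up to 4 called genes per list with the lowest adjusted p, 6 genes by the adjusted p of the difference between backgrounds, and up to 4 genes per exon class and direction. Of the named events, 2 introns are not reported here. The members, lists and tests were chosen with earlier results of these data known. Alternatives were other dispersion priors, limma on log2 odds, other read filters, other call rules and leaving out each library. Counts of classes and lists without the third siNT/siUPF1 library were added after seeing the data. The fit was tested on simulated counts. Python 3.11.15 with pandas 2.3.3, scipy 1.17.1, pysam 0.24.0 and matplotlib 3.10.9 was used for the rest.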

Additional observations from a re-analysis of the deposited data

Results flagged for a closer look

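The effect of SFSWAP knockdown differed between the UPF1 backgrounds by the interaction test at 3 events. For the CREBZF intron the difference of log2 odds ratios, UPF1 knockdown background minus the background without UPF1 siRNA, was 1.65 (Wald test on the limma-moderated dispersion, adjusted p = 0.000552), and it ranged from 1.49 to 1.88 when each of the 12 libraries was left out. For SNRPA1 exon 6 it was 2.52 (adjusted p = 0.00461; 2.27 to 2.76 with 1 library left out, called in 9 of 12). For the SRRM1 exon in intron 3 it was -2.51 (adjusted p = 0.0263; -2.96 to -2.21, called in 6 of 12). With limma on log2 odds the adjusted p of these events was 0.424, 0.839 and 0.839.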

How the results depend on the processing

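No paired analysis was possible because the tables give the 3 libraries of a group without replicate numbers, although the labels number them, and a place in a list was not read as a number. Of introns called, with 232 in the reported fit, each event's own dispersion left 0 (449 at an unadjusted p under 0.05), no filter on low counts left 0 (1027 at an unadjusted p under 0.05), limma left 1 with either pseudocount, a difference of at least 0.2 left 89, and leaving out 1 library gave 87 to 382. Of 2636 exon events called, the same settings left 0 (4212 at an unadjusted p under 0.05) with the event's own dispersion, 29 without a filter (26 decreases and 3 increases), 214 and 529 with limma at pseudocounts of 0.5 and 1, 983 with a difference of at least 0.2, and 1440 to 3109 with 1 library left out. The construction of 2 settings bears on this, since the moderated dispersion gives an event's own spread little weight and the unfiltered set holds 9649 introns and 110133 exon events. The cause was not tested for the rest. Calls stayed within 1.5 times of these counts without a trend on depth (182 and 2558), with a robust prior (255 and 2713), without the floor (232 and 2636), with at least 30 reads (203 and 2442), with groups that do not overlap (213 and 2151) and with 1 event per exon (2389). For the difference between backgrounds, limma called 0 introns and 0 exon events, a minimum of 30 reads left 1 exon event of 2, and leaving out 1 library gave 1 to 4 introns and 0 to 27 exon events. The OGT decoy difference of -0.227 was not called with limma (adjusted p = 0.244), and ranged from -0.286 to -0.160 with 1 library left out. None of the 155 named called events changed direction under any setting tried. Of them, limma with a pseudocount of 0.5 called 13 and each event's own dispersion 0, and 114 to 149 stayed called when 1 library was left out, of the 151 to 155 that could be tested. The introns of LIG1, LUC7L3 and WDR45 and the exon of ACP1 were called in 1 of these 6 fits. SFSWAP and UPF1 reads scaled to intron reads gave decreases of 59.7%, 65.5% and 59.6%, with the same exact permutation p. Among events not called, depth was alike for both kinds, with a median of 98.3 reads per library at introns and 105 at exon events. Called events were deeper, with medians of 151.5 and 274.7 at introns that fell and rose, and 235.8 and 177.4 at exons that fell and rose.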
